A study of Danio rerio with 58 samples.

Results

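Tailbud progenitor genes are described here in zebrafish exposed to chronic gamma irradiation. They are 10 genes, tbxta, tbx16, msgn1, cdx1a, cdx4, vox, ved, vent, eve1 and sall4, chosen by symbol from the 32057 genes in the count files. The choice used no measured value of these samples, although it was made with earlier results of the series known. Counts of members beside shares of all genes are therefore not independent of these data. Each symbol matched a single Ensembl gene, and the levels of all 10 were read in every sample.

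The tailbud is the growth zone at the posterior end of the vertebrate embryo. It holds bipotent progenitors that give rise to spinal cord and to presomitic mesoderm, the tissue from which somites form, and it is used up as the body axis reaches its full length. T-box factors such as tbxta and tbx16, the bHLH factor msgn1 and the caudal-type homeobox factors cdx1a and cdx4 keep these progenitors or lead them towards mesoderm, under Wnt, Fgf and Bmp signals. The homeobox repressors vox, ved and vent and the even-skipped relative eve1 are known from the ventral side of the gastrula, where they act in the Bmp pathway, and are later expressed in the tailbud. The zinc finger factor sall4 is known from pluripotent and progenitor cells.

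RNA was sequenced from pools of whole AB strain embryos or larvae, each pool being 1 sample. They were irradiated from the cleavage stage on by a caesium gamma source at 0.5, 5 or 50 mGy/h, or kept without exposure as controls, and collected at 24, 48 or 96 hours post-fertilization (hpf). Samples came from 3 irradiation batches, labelled I10, I17 and I32. Exposures at 5 and 50 mGy/h were all in batch I17 and shared its 3 controls at each stage, and exposures at 0.5 mGy/h were in batch I32 at 24 hpf and in batch I10 at 24, 48 and 96 hpf, each with controls of that batch. Groups held 3 samples, except for 2 samples at 5 mGy/h at 48 hpf, 2 at 50 mGy/h at 96 hpf, 5 controls of batch I32, and 2 and 4 controls of batch I10 at 24 and 48 hpf. Of the 58 samples, 51 were used. The study removed the other 7 as outliers, though its clustering figure names replicate 9 of 50 mGy/h on 1 axis and of 5 mGy/h on the other for a sample at 96 hpf, taken here as that of 50 mGy/h. In addition, the 5 samples of batch I10 at 24 hpf, absent from that figure, were used here as a second 0.5 mGy/h experiment. Exposed samples and their controls came from a single irradiation batch, so SD, standard errors (SE) and p-values measure the spread between pools and not between repeated irradiations. In comparisons across batches, each batch is likewise a single irradiation.

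Between 28278920 and 49971607 read pairs per sample were counted on genes. Levels are given as CPM, counts relative to library size after scaling by the TMM method over all 58 samples, the removed ones included. The floor of detection was taken as 3 counts, which equalled 0.0600 to 0.106 CPM. Differences are log2 fold changes from edgeR's quasi-likelihood test, with p-values adjusted by the Benjamini-Hochberg method over all genes tested, and a gene was called when it changed at least 1.5-fold with an adjusted p below 0.01. CPM are not corrected for gene length, so levels were not compared between genes. Where samples are said not to overlap, the share of all genes without overlap was not counted. Non-overlap is therefore a description of the gene and not a test. In whole-body RNA, fewer cells of a type and less RNA per cell cannot be told apart. In the RefSeq gene table of the GRCz12tu assembly, vent and vox were next to each other with 0 genes between them, and cdx1a and cdx4 lay on 1 chromosome with 465 protein-coding genes between them.

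How the tailbud genes change as unexposed embryos grow was read in the controls of batches I17 and I10. From 24 to 48 hpf, the time in which the tail finishes its extension, most members fell in both batches. In batch I17, 8 of 10 members fell, beside 13.3% of all genes, cdx1a rose, and ved missed the threshold at -0.63 (edgeR adjusted p = 0.0311). In batch I10 all 10 fell, beside 12.8% of all genes. The median log2 fold change of the members was -1.91 in batch I17 and -2.51 in batch I10, while the median of all genes tested was -0.01 and 0.

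The Brachyury factor tbxta, which notochord cells also express, fell from 23.6, 25.3 and 26.4 CPM at 24 hpf to 6.33, 7.90 and 8.06 CPM at 48 hpf in batch I17, a log2 fold change of -1.78 ± 0.13 (SE, edgeR adjusted p = 3.06e-08). The homeobox gene cdx4, an activator of posterior Hox genes, was at 3.41, 3.20 and 3.18 CPM at 24 hpf and at 0.124, 0.462 and 0.296 CPM at 48 hpf. Neither gene had a 48 hpf control as high as a 24 hpf control of that batch. msgn1, the bHLH factor that commits progenitors to presomitic mesoderm, and vent were low by 48 hpf. The highest msgn1 count in a 48 hpf control was 9 in batch I17 and 6 in batch I10, so no fold is given for it, and the highest vent count was 4 in batch I17 and 15 in batch I10. sall4 fell at each step, from 97.9, 93.9 and 97.3 CPM to 25.8, 34.0 and 31.3 CPM in batch I17 and then to 9.30, 10.2 and 9.85 CPM at 96 hpf.

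cdx1a was the member that did not follow the others. In the controls of batch I17 it was at 0.384, 0.323 and 0.338 CPM at 24 hpf, 1.95, 1.75 and 1.61 CPM at 48 hpf and 22.3, 16.95 and 17.5 CPM at 96 hpf, so that each stage lay above the one before. In the controls of batch I10 it was at 7.27 and 1.39 CPM at 24 hpf, fell to between 0.573 and 0.951 CPM at 48 hpf and was at 10.5, 9.78 and 9.01 CPM at 96 hpf. The log2 change from 24 to 48 hpf was thus 2.30 ± 0.23 in batch I17 and -2.40 ± 0.42 in batch I10. The difference between these changes was 4.69 ± 0.62 (SE, edgeR adjusted p = 0.00225), and cdx1a was the single member called in this test, beside 0.0483% of all genes. The call was lost without control replicate 4 at 24 hpf or control replicate 8 at 48 hpf of batch I17, which left 0 members called by edgeR. With every sample in, 4 members were under an unadjusted p of 0.05, beside 3126 of 20685 genes. DESeq2 called 1 member, and its share of all genes is not given here. From 48 to 96 hpf cdx1a rose in both batches, by 3.45 ± 0.17 and 3.65 ± 0.38 on the log2 scale. Related Cdx factors are known in the vertebrate intestine, but whole-body RNA does not show in which tissue cdx1a was read.

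From 48 to 96 hpf, 3 members were called in batch I17 (cdx1a higher, vox and sall4 lower), beside 43.3% of all genes. In batch I10 these and tbxta, at -0.77 ± 0.15, made 4, beside 44.4% of all genes. vox was at 2.67, 1.65 and 2.10 CPM in the 48 hpf controls of batch I17 and fell by 3.02 on the log2 scale.

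**Figure D1:**
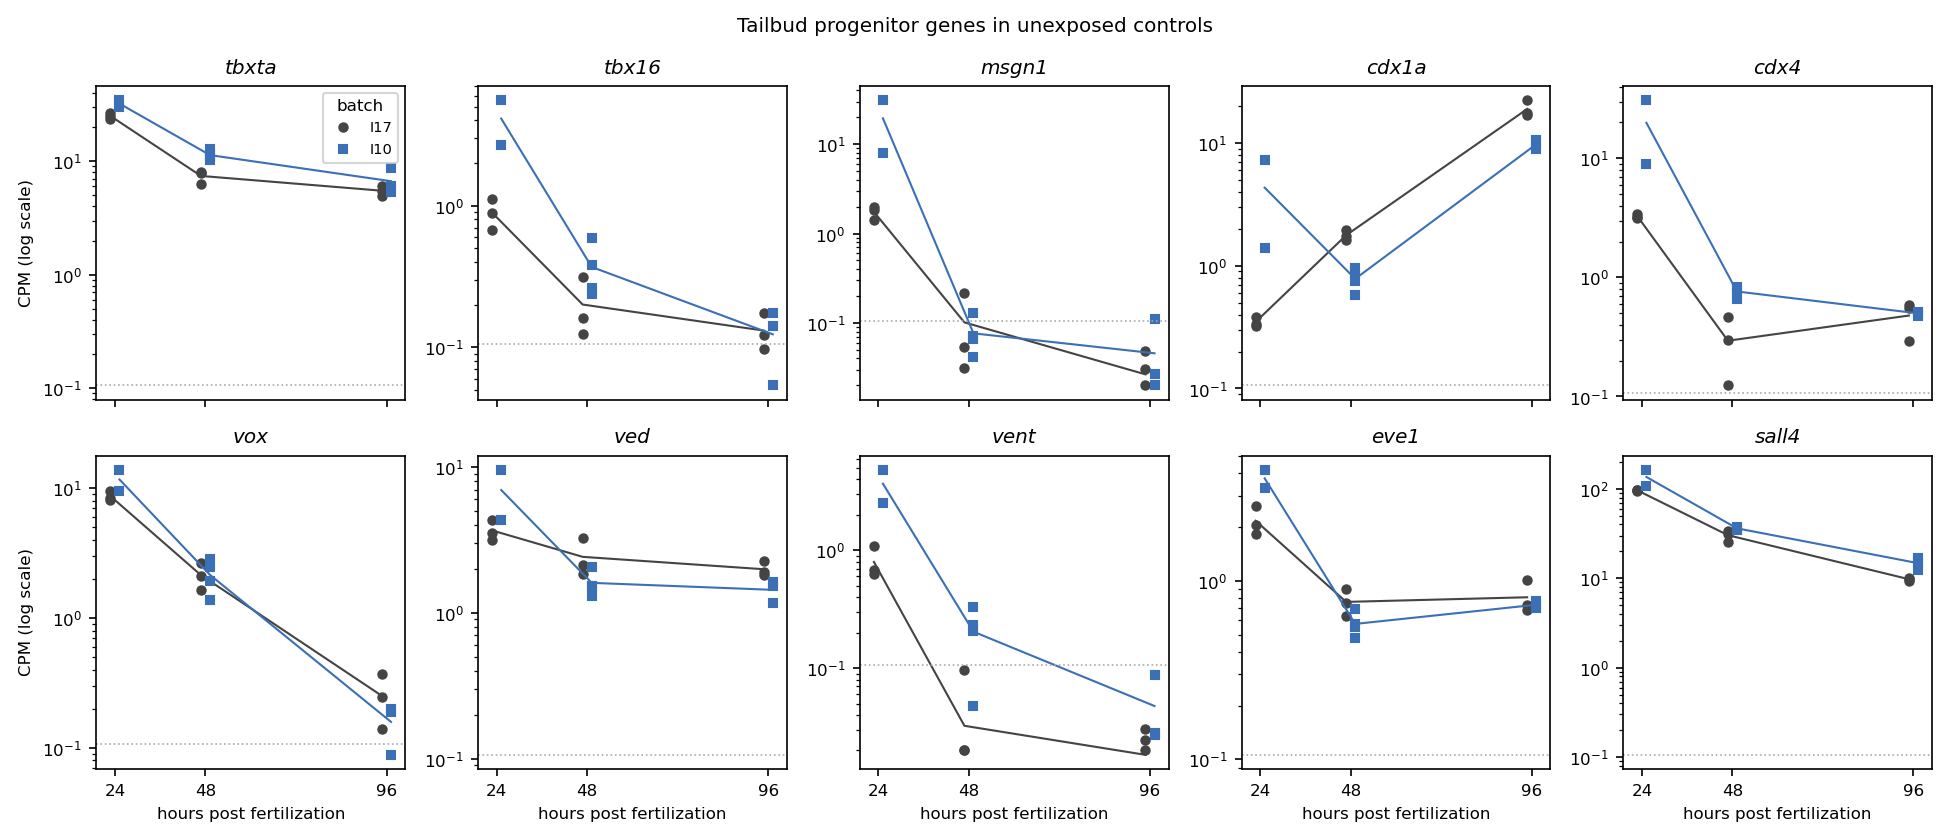
Level of each member in CPM (log axis) in control samples of batches I17 and I10 at 24, 48 and 96 hpf, 1 point per sample. Lines join the group means, values of 0 are drawn at 0.02, and the dotted line marks the highest 3-count floor, 0.106 CPM. The group means descend from 24 to 48 hpf in both batches in every panel but that of cdx1a, which climbs from the first stage in batch I17 and dips at 48 hpf in batch I10.

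Whether chronic irradiation altered the tailbud genes at 24 hpf was tested in batch I17 at the higher dose rates. In 24 hpf embryos, 7 of the 10 members rose at 5 mGy/h and 7 rose at 50 mGy/h, and they were tbx16, msgn1, cdx1a, cdx4, vox, ved and eve1 in each case. None fell. The background was 6.68% of all genes called higher at the lower of these dose rates and 4.17% at the other. Since the members were chosen with earlier results of these data known, their share beside this background is a description and not an independent test. The members' median log2 fold changes were 1.59 and 1.599 in that order, and those of all genes tested were -0.06 and -0.02. Both exposed groups were set against the same 3 controls, so the agreement of their lists is not a repeat.

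Among the mesoderm-forming factors, tbx16 (ENSDARG00000007329), a T-box factor needed for mesoderm progenitors to leave the tailbud, was at 0.888, 1.11 and 0.675 CPM in controls, 2.46, 4.02 and 4.47 CPM at 5 mGy/h and 4.47, 4.27 and 4.36 CPM at 50 mGy/h. Every exposed sample lay above every control. The log2 fold change was 2.04 ± 0.28 at 5 mGy/h (SE, n = 3 against 3, edgeR adjusted p = 4.75e-04) and 2.33 ± 0.27 at 50 mGy/h (adjusted p = 1.66e-04). msgn1 (ENSDARG00000070546) was at 1.85, 1.98 and 1.42 CPM in controls, 5.36, 8.33 and 9.41 CPM at 5 mGy/h and 32.1, 8.29 and 6.61 CPM at 50 mGy/h. Replicate 1 at 50 mGy/h stood far above the other exposed samples. The log2 fold change of msgn1 was 2.14 ± 0.49 at 5 mGy/h (edgeR adjusted p = 0.00682), and it was 3.19 ± 0.49 at 50 mGy/h with that replicate and 2.12 without it (adjusted p = 9.92e-04 and 1.42e-04). The T-box gene tbxta (ENSDARG00000101576) differed less, with controls at 23.6, 25.3 and 26.4 CPM, 5 mGy/h at 28.4, 34.8 and 36.6 CPM and 50 mGy/h at 35.8, 27.1 and 29.8 CPM. No exposed sample overlapped the controls, but the log2 fold changes of 0.41 ± 0.16 and 0.32 ± 0.16 did not pass the threshold (edgeR adjusted p = 0.0641 and 0.157).

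Both caudal genes rose at each dose rate. cdx1a (ENSDARG00000114554) was at 1.71, 5.29 and 7.08 CPM at 5 mGy/h and at 8.44, 8.07 and 3.46 CPM at 50 mGy/h, against 0.323 to 0.384 CPM in controls. Its log2 fold changes of 3.72 ± 0.51 and 4.26 ± 0.50 were the largest of the 10 members at either dose rate (edgeR adjusted p = 4.76e-04 and 1.66e-04). The exposed samples spread over several-fold within a group, although none came near the controls. cdx4 (ENSDARG00000036292) was at 10.6, 12.8 and 13.4 CPM at 5 mGy/h and 14.8, 12.9 and 11.1 CPM at 50 mGy/h, against 3.18 to 3.41 CPM in controls. Its log2 fold changes of 1.91 ± 0.18 and 2.01 ± 0.18 had the lowest adjusted p of the members (4.03e-05 and 2.29e-05 by edgeR).

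Of the ventral homeobox repressors, vox (ENSDARG00000099761) was at 8.40, 9.59 and 8.08 CPM in controls, 17.4, 23.3 and 21.5 CPM at 5 mGy/h and 19.3, 19.6 and 22.4 CPM at 50 mGy/h. The log2 fold changes were 1.26 ± 0.16 and 1.25 ± 0.16 (edgeR adjusted p = 3.56e-04 and 3.5e-04). ved (ENSDARG00000102389) rose from 3.17, 4.31 and 3.52 CPM to 10.9, 14.5 and 16.3 CPM at 5 mGy/h and 12.5, 14.2 and 14.96 CPM at 50 mGy/h, by 1.93 ± 0.20 and 1.94 ± 0.20 on the log2 scale (adjusted p = 7.96e-05 and 5.42e-05). Neither gene had an exposed sample within the range of the controls. vent (ENSDARG00000100483), the neighbour of vox, did not pass the test. It was at 1.08, 0.683 and 0.627 CPM in controls, 1.02, 0.441 and 0.380 CPM at 5 mGy/h and 2.20, 1.99 and 0.485 CPM at 50 mGy/h, and the groups overlapped at both dose rates (log2 fold changes -0.31 ± 0.53 and 0.98 ± 0.48, edgeR adjusted p = 0.688 and 0.161).

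The even-skipped relative eve1 (ENSDARG00000056012) was at 2.04, 1.83 and 2.63 CPM in controls, 4.47, 3.97 and 3.95 CPM at 5 mGy/h and 4.67, 4.31 and 5.19 CPM at 50 mGy/h, with no overlap. Its log2 fold changes of 0.93 ± 0.21 and 1.14 ± 0.20 were called at both dose rates (edgeR adjusted p = 0.00595 and 0.00266). The progenitor factor sall4 (ENSDARG00000044485) was at 97.9, 93.9 and 97.3 CPM in controls, 127, 121 and 115 CPM at 5 mGy/h and 97.6, 137 and 118 CPM at 50 mGy/h. One exposed sample lay among the controls at 50 mGy/h, and the log2 fold changes of 0.33 ± 0.15 and 0.30 ± 0.15 were not called (edgeR adjusted p = 0.112 and 0.163).

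At 5 mGy/h the calls of msgn1 and eve1 were the fragile ones, since leaving out any 1 of the 6 samples ended the call of eve1 and any but replicate 1 of 5 mGy/h ended that of msgn1, leaving 5 or 6 members called. At 50 mGy/h, leaving out control replicate 1 ended both. In the scaling over all 58 samples that gave the CPM, the TMM factors of these samples differed by group. They were 0.669 to 0.784 at 5 mGy/h, 0.688 to 0.824 at 50 mGy/h and 0.938 to 1.25 in controls. The edgeR tests computed their own factors within the stage and batch, which are not given here. Without TMM, an alternative added after seeing the data, the median of all genes moved to -0.69 at 5 mGy/h and -0.54 at 50 mGy/h. The members still called were then 5 and 6, and tbxta (-0.21 and -0.19) and sall4 (-0.29 and -0.22) lay below 0 but above those medians. Shares of all genes called without TMM or with a sample left out are not given here.

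**Figure D2:**
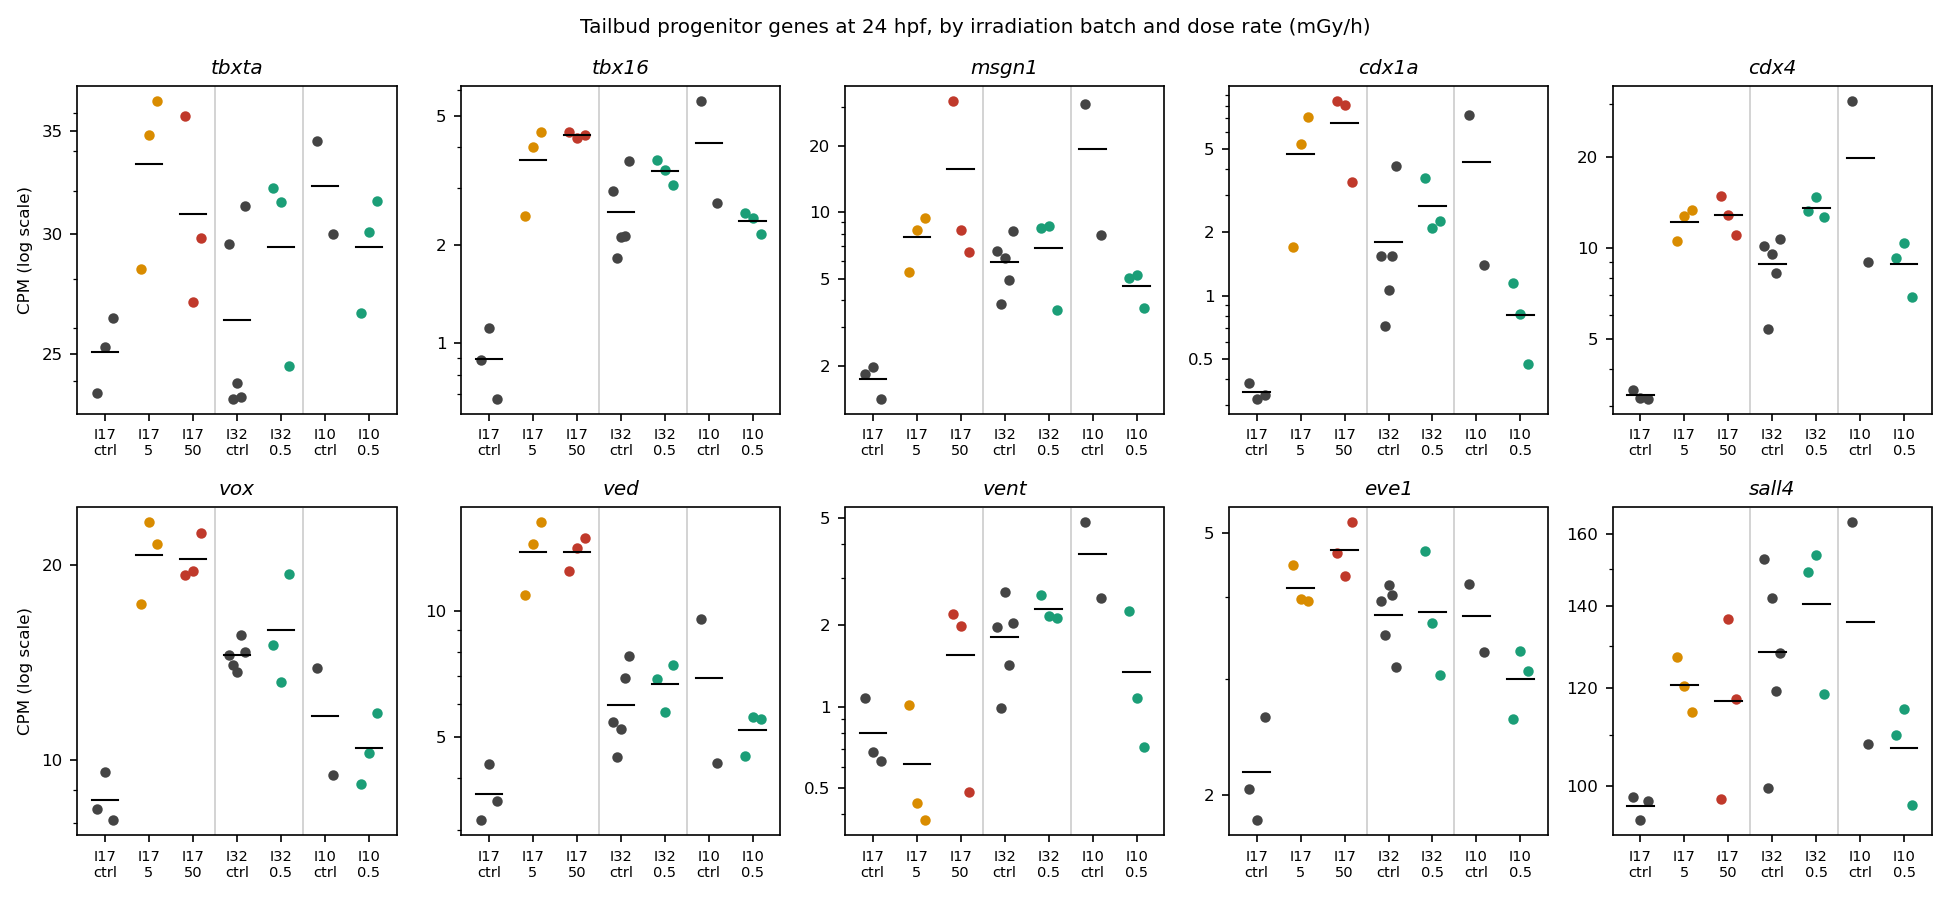
Level of each of the 10 members in CPM (log axis) at 24 hpf, by batch and dose rate, 1 point per sample and a line at each group mean. In batch I17 the controls lie below both exposed groups for all members except vent and sall4, while in batches I32 and I10 the groups mostly overlap.

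A step between the higher dose rates was not detected. With 50 mGy/h set against 5 mGy/h directly, edgeR called 0 of the 10 members and 0% of all genes, and DESeq2 called 0 members. Under an unadjusted p of 0.05 were 2 members, beside 1146 of 18358 genes. These members were msgn1 (log2 fold change 1.05 ± 0.44) and vent (1.30 ± 0.51), and msgn1 stood at -0.028 without replicate 1 of 50 mGy/h. vox, ved and sall4 had log2 differences of -0.01 ± 0.16, 0.02 ± 0.18 and -0.03 ± 0.15, and cdx4 and tbxta of 0.09 ± 0.17 and -0.09 ± 0.16.

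The controls of the 3 batches did not start from 1 level. At 24 hpf the controls of batch I17 held the lowest levels of most members, although all 3 sets of controls were unexposed embryos of the same labelled age. Against batch I17, 5 members were higher in the controls of batch I10 (tbx16, msgn1, cdx1a, cdx4 and vent), beside 6.42% of all genes. In the controls of batch I32, 6 members were higher than in batch I17 (tbx16, msgn1, cdx1a, cdx4, vox and eve1), beside 4.03% of all genes. No member was called lower in either comparison. Without control replicate 2 of batch I10 the count fell from 5 to 2, and without control replicate 4 of batch I17 the count for batch I32 fell from 6 to 2. The shares of all genes called without these samples are not given here, so the falls are not read as particular to the members.

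The size of these differences between controls was of the order of the exposure differences. For cdx4 the controls of batch I32 were at 10.2, 5.43, 9.60, 8.28 and 10.8 CPM and those of batch I10 at 30.7 and 9.00 CPM, all above the 3.18 to 3.41 CPM in the controls of batch I17. The log2 difference from batch I17 was 1.41 ± 0.29 for batch I32 and 2.56 ± 0.33 for batch I10 (edgeR adjusted p = 0.00176 and 5.04e-05). For tbx16 the controls of batch I32 were at 2.94, 1.83, 2.12, 2.13 and 3.63 CPM and those of batch I10 at 5.56 and 2.69 CPM, again above all controls of batch I17. cdx1a ranged from 0.713 to 4.12 CPM in the controls of batch I32, where replicate 6 was the highest, and differed from batch I17 by 2.31 ± 0.59 on the log2 scale (edgeR adjusted p = 0.00852).

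Beside the 7 controls of batches I10 and I32, the controls of batch I17 lay mostly below the range of unexposed embryos, and the exposed samples mostly inside or above it. Of the 30 values that 10 members had in the 3 controls of batch I17, 25 lay below that range, 5 inside and 0 above. Of the 30 values at 5 mGy/h, 19 lay inside, 9 above and 2 below, and at 50 mGy/h 15 lay inside, 13 above and 2 below. The 30 values of each group come from 3 pools and from genes that varied together, so they are not 30 separate observations. The same count was not made over all genes. The members with every sample above the range were vox and ved at both dose rates, and eve1 at 50 mGy/h. For tbx16, msgn1, cdx1a and cdx4 the top of the range was control replicate 2 of batch I10 alone, at 5.56, 31.0, 7.27 and 30.7 CPM. The next highest controls were at 3.63, 8.21, 4.12 and 10.8 CPM in that order. Most exposed values of each of these genes lay above those, so their place inside the range rested largely on that sample.

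With the controls of batches I10 and I32 in place of those of batch I17, an alternative added after seeing the data, edgeR called 3 members at 5 mGy/h and 2 at 50 mGy/h, where 7 had been called with the controls of the batch. The share of all genes called in this comparison is not given here, so these counts are not read against a background. vox was higher by 0.71 and 0.70 on the log2 scale (adjusted p = 1.5e-04 and 3.38e-04), and ved by 1.14 and 1.16 (adjusted p = 1.11e-04 and 2.07e-04). vent was lower at 5 mGy/h, at -1.95 (adjusted p = 8.93e-04). The genes with the largest log2 fold changes against their own controls at 50 mGy/h were not called. Their values were 0.77 and 1.31 for cdx1a, -0.076 and 0.013 for cdx4, 0.20 and 0.49 for tbx16 and -0.45 and 0.59 for msgn1. Both batches had equal weight, so the 2 controls of batch I10 counted as much as the 5 of batch I32. Control means of batch I32 were 1.79 CPM for cdx1a, 8.86 for cdx4, 2.53 for tbx16 and 5.95 for msgn1, below both exposed means. Those of batch I10 were 4.33, 19.9, 4.12 and 19.5 CPM in that order. Each batch was not tested apart. The members' median was 0.19 at 5 mGy/h and 0.43 at 50 mGy/h. In this comparison batch and exposure cannot be told apart, since no control of batches I10 and I32 was irradiated or collected with batch I17.

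**Figure D3:**
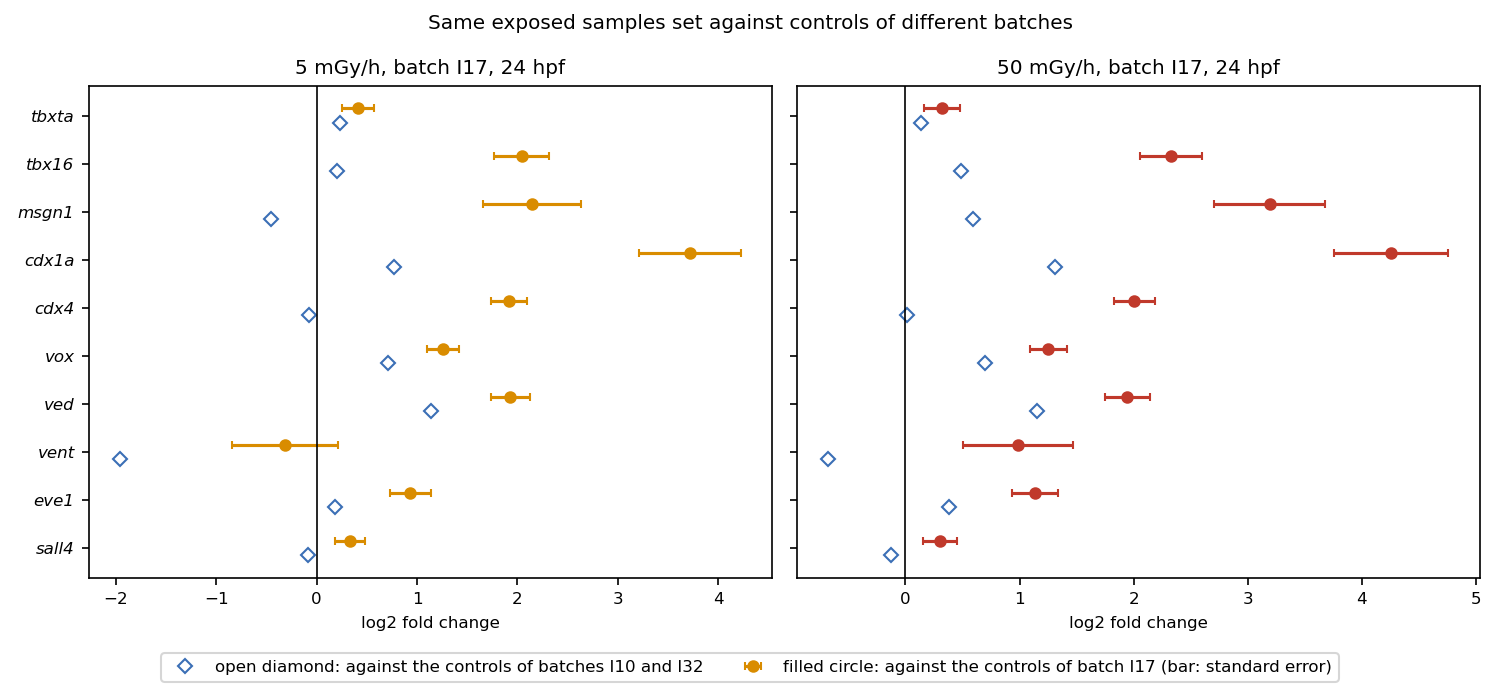
Log2 fold change of each member at 5 and 50 mGy/h at 24 hpf in batch I17, against the controls of the batch (filled circles, with SE) and against the controls of batches I10 and I32 (open diamonds). The diamonds of tbx16, msgn1, cdx1a and cdx4 lie far closer to 0 than their circles, while those of vox (0.71 and 0.70) and ved (1.14 and 1.16) stay clear of 0.

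Since most members fell between 24 and 48 hpf in controls, the developmental position of each 24 hpf sample was measured beside them, on all other genes. It is the place of a sample along the change from 24 to 48 hpf of the controls of batch I10, in percent of that change, with members and all listed genes left out. The 3 controls of batch I17 lay at 25.7%, 22.5% and 25.5%, ahead of every other 24 hpf sample. The samples at 5 mGy/h lay at 5.24%, 8.34% and 7.83% and those at 50 mGy/h at 0.0677%, 9.23% and 8.25%. The controls of batch I32 lay between 6.72% and 10.5%, so that 4 of these 6 exposed samples lay among them and 2 before them. The difference from controls was -17.4 percentage points at 5 mGy/h (7.14 ± 1.66 against 24.6 ± 1.81, SD, n = 3 each) and -18.7 at 50 mGy/h, and each gave p = 0.1 in an exact permutation test, two-sided, the smallest p that 3 against 3 allows. With the 48 hpf controls of batch I17 as the later end, these differences were -4.02 and -8.41 (p = 0.2 each, exact permutation test), so the size depended on the axis. That axis still starts from the 24 hpf controls of batch I10, so it also holds the difference between the batches. Along the change of the batch I17 controls alone, its 24 hpf controls lay at 1.25%, -2.53% and 1.28%, a place set by construction. The samples at 5 mGy/h lay there at -8.78%, -6.62% and -6.47%, and those at 50 mGy/h at -14.6%, -6.25% and -5.97%. Between groups, the controls of batch I17 were furthest along and had the lowest mean log2 CPM of the members. Within groups the direction varied. The earliest sample had the highest mean at 50 mGy/h (3.73) and the lowest at 5 mGy/h (2.97). Among the controls of batch I32 the furthest sample had the highest mean (3.20). The part of position in the members' differences was not tested.

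**Figure D4:**
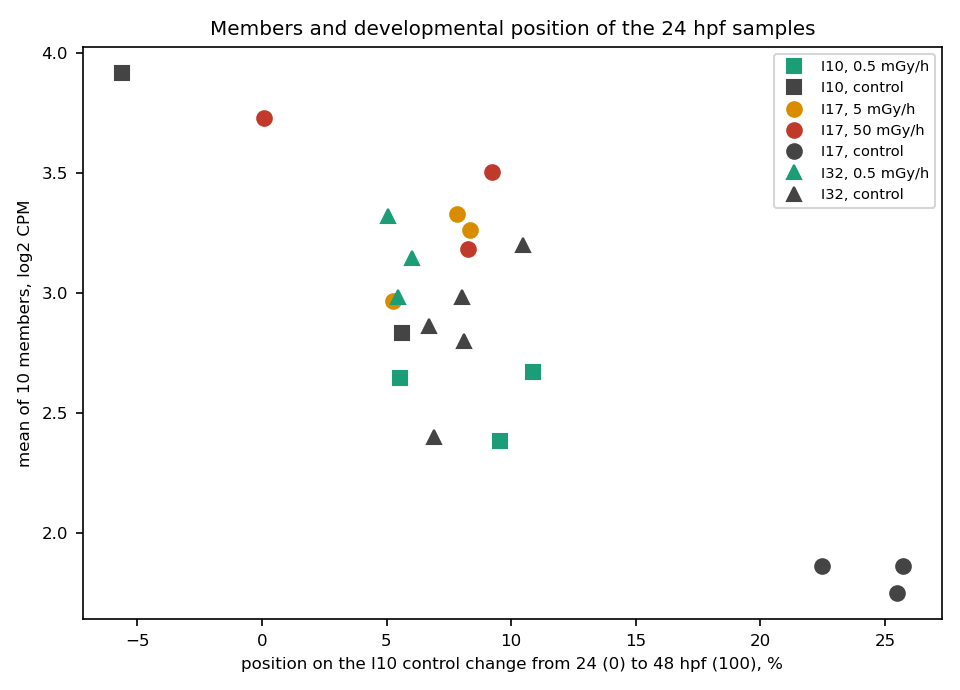
Mean log2 CPM of the 10 members (vertical) against position on the control change from 24 to 48 hpf in percent (horizontal) for 24 hpf samples, by batch and dose rate. The 3 controls of batch I17 stand apart at 22.5% to 25.7% with the lowest member levels, and every other sample lies between -5.63% and 10.9%.

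Markers of some other tissues moved with the same groups, and those of others overlapped. The sum of 4 notochord genes, a tissue that also expresses tbxta, was 712 to 945 CPM in the 24 hpf controls of batch I17, 1476 to 2036 CPM at 5 mGy/h and 1348 to 2514 CPM at 50 mGy/h. The sum of 6 neuronal genes was 222 to 276 CPM in those controls, 136 to 149 CPM at 5 mGy/h and 137 to 165 CPM at 50 mGy/h, and the sum of 5 epidermal genes was 5349 to 8451, 17254 to 18749 and 14260 to 19209 CPM in the same order. No gene of these 3 lists was at 0 throughout, and their part in the members' differences was not tested. The notochord sum was 641 to 949 CPM in the controls of batch I32 and 832 to 866 CPM in those of batch I10, below every exposed sample of batch I17. In the controls of batch I32 the neuronal sum was 155 to 181 CPM and the epidermal sum 6236 to 7566 CPM, and in those of batch I10 they were 184 to 197 and 9571 to 10684 CPM. The neuronal sums of both batches thus lay below every control of batch I17, while the epidermal sum lay within the range of those controls in batch I32 and above it in batch I10. Within batch I17 the yolk and liver sum of exposed samples lay above controls at both dose rates, though 0 of its 4 genes were called at either. In controls it was 9988 to 14265 CPM in batch I32, overlapping those exposed samples, and 6410 to 7121 CPM in batch I10, below them. The fast muscle sum of exposed samples overlapped the controls of batch I17 at both dose rates. It was 14921 to 24534 CPM in controls, 23753 to 33880 at 5 mGy/h and 17888 to 31250 at 50 mGy/h. The erythrocyte and pluripotency sums lay above controls at 5 mGy/h and overlapped them at 50 mGy/h.

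The lowest dose rate gave no called member and opposite signs in the 2 batches. At 0.5 mGy/h in 24 hpf embryos of batch I32, edgeR called 0 of 10 members, beside 0.0694% of all genes, and DESeq2 called 0 members. Under an unadjusted p of 0.05 were 2 members, beside 2513 of 18721 genes. All 10 log2 fold changes were above 0, with a median of 0.20, beside a median of -0.005 for all genes tested. cdx4 came nearest, with 13.3, 14.8 and 12.7 CPM in exposed samples, each above the highest control at 10.8 CPM (log2 fold change 0.63 ± 0.16, edgeR adjusted p = 0.0623). In batch I10 at the same age, edgeR and DESeq2 each called 0 of 10 members, and edgeR called 0.0104% of all genes. Under an unadjusted p of 0.05 were 5 members, beside 1975 of 19180 genes. All 10 log2 fold changes were below 0, with a median of -0.59, beside a median of 3.8e-04 for all genes tested. The members varied together, so 10 equal signs in a batch are not 10 separate observations. For members not under an unadjusted p of 0.05 the sign is a description and is not read as a change.

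The negative values of batch I10 rested largely on 1 of its 2 controls. msgn1 was at 31.0 and 7.90 CPM in controls and 5.04, 5.18 and 3.68 CPM in exposed samples, with a log2 fold change of -2.05 ± 0.41 (edgeR adjusted p = 0.439) and of -0.76 without control replicate 2. cdx1a was at 7.27 and 1.39 CPM in controls and 1.14, 0.820 and 0.475 CPM in exposed samples, with -2.38 ± 0.56 (adjusted p = 0.439) and -0.76 without that control. cdx4 was at 30.7 and 9.00 CPM in controls and 9.31, 10.4 and 6.92 CPM in exposed samples, with -1.14 ± 0.37, and -0.01 without it. Control replicate 2 held the highest cdx4, tbx16, vent and sall4 of the 24 hpf samples used. Its position on the developmental change was -5.63%, the earliest on that measure. The measure starts from the mean of these 2 controls, which therefore lie at -5.63% and 5.63% by construction, so this place is not an independent reading. Along the same change in the controls of batch I17, control replicate 2 lay at -14.2%. Replicate 1 of 50 mGy/h was earlier there, at -14.6%. Without control replicate 3 instead, msgn1 was called (-2.72, adjusted p = 0.00182).

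The difference between the 2 effects of 0.5 mGy/h was tested itself. edgeR and DESeq2 called 0 of 10 members, and edgeR called 0.0101% of all genes. Under an unadjusted p of 0.05 were 6 members, beside 1455 of 19758 genes. The largest differences, batch I32 less batch I10, were 2.96 ± 0.75 for cdx1a and 2.26 ± 0.51 for msgn1 (edgeR adjusted p = 0.435 each). In batch I32 the developmental position was 5.52 ± 0.48 percent at 0.5 mGy/h and 8.05 ± 1.4997 percent in controls (SD, n = 3 and 5, p = 0.0357 in an exact permutation test, two-sided). With the 48 hpf controls of batch I17 as the later end the difference turned to 0.954 (p = 0.411, exact permutation test).

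At 48 hpf, when most members had fallen in controls, vox was the single member that edgeR called. That was at 50 mGy/h, where DESeq2 called 3 members, its share of all genes not being given here. msgn1 and vent did not reach the count filter in batch I17, which left 8 members tested, and msgn1 did not reach it in batch I10, which left 9. vox was at 2.67, 1.65 and 2.10 CPM in the controls of batch I17, 4.87 and 4.54 CPM at 5 mGy/h and 5.58, 5.20 and 6.38 CPM at 50 mGy/h. Exposed samples lay above controls at both dose rates, and also above the 4 controls of batch I10, at 1.37 to 2.85 CPM. At 50 mGy/h the log2 fold change of 1.46 ± 0.21 made vox the single member called (edgeR adjusted p = 0.00421), beside 0.757% of all genes called higher. The call ended when 50 mGy/h replicate 5 or any 1 of the control replicates 5, 7 and 8 was left out, with adjusted p of 0.0126 to 0.0291. At 5 mGy/h vox was at 1.15 ± 0.23 (adjusted p = 0.0355), and edgeR called 0 of 8 members, beside 0.157% of all genes. Under an unadjusted p of 0.05 were 5 members, beside 3246 of 19802 genes. DESeq2 called 1 member, and its share of all genes is not given here either.

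The exposed samples lay on opposite sides of controls for the caudal genes at 48 hpf, without a call for either gene. cdx1a was at 1.95, 1.75 and 1.61 CPM in controls, 0.904 and 0.912 CPM at 5 mGy/h and 0.627, 0.496 and 0.727 CPM at 50 mGy/h, all exposed samples below all controls (log2 fold changes -0.95 ± 0.31 and -1.49 ± 0.28, edgeR adjusted p = 0.136 and 0.0108). cdx4 was at 0.124, 0.462 and 0.296 CPM in controls, 1.097 and 0.872 CPM at 5 mGy/h and 1.01, 1.24 and 0.503 CPM at 50 mGy/h, all exposed samples above all controls (1.70 ± 0.52 and 1.64 ± 0.48, adjusted p = 0.117 and 0.0543). Neither was called. Against the 4 controls of batch I10, at 0.573 to 0.951 CPM for cdx1a and 0.658 to 0.832 CPM for cdx4, the controls of batch I17 lay above for cdx1a and below for cdx4. The exposed samples lay mostly within that range for cdx1a, and mostly above it for cdx4. tbxta, at 6.33, 7.90 and 8.06 CPM in controls and 15.2, 12.2 and 10.7 CPM at 50 mGy/h, had a log2 fold change of 0.80 ± 0.17 (adjusted p = 0.0173) and was not called either. Without replicate 8 of 50 mGy/h, 5 members were called at 48 hpf, among them tbxta, cdx1a, cdx4 and vox. The share of all genes called without that sample is not given here, so the rise in the count is not read as particular to the members.

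The change of the exposure effect between 24 and 48 hpf was tested as an interaction. cdx1a was the single member called, with a difference of log2 fold changes of -4.70 ± 0.65 at 5 mGy/h (edgeR adjusted p = 6.37e-04), beside 0.152% of all genes called lower, and of -5.80 ± 0.61 at 50 mGy/h (adjusted p = 1.95e-05), beside 0.236%. The exposed samples lay above controls in cdx1a at 24 hpf and below them at 48 hpf, where the difference itself was not called. The controls of batch I17, in which cdx1a rose 4.91-fold between these stages, entered both sides. ved came next, at -1.80 ± 0.38 and -1.77 ± 0.35 (adjusted p = 0.0174 and 0.0112). For vox the change was -0.13 ± 0.27 and 0.15 ± 0.25, so a change of its effect between the stages was not detected.

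**Figure D5:**
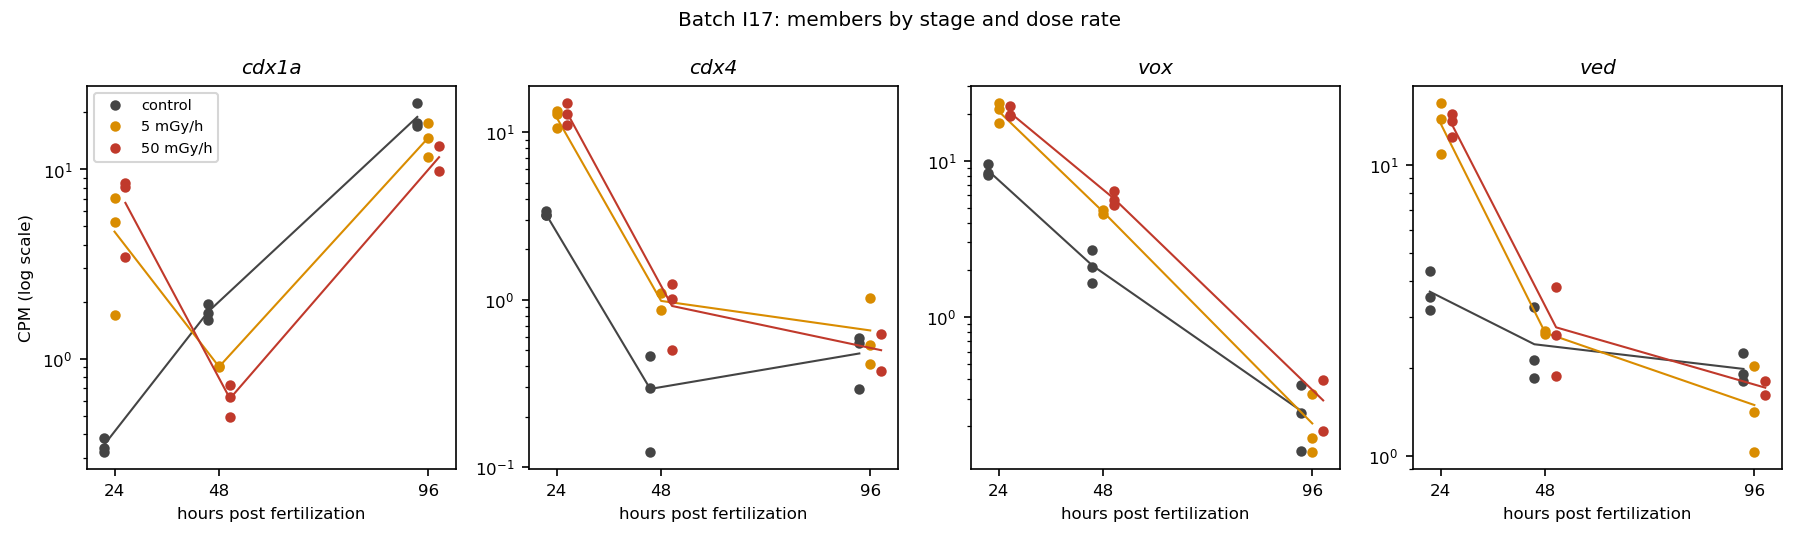
Level of cdx1a, cdx4, vox and ved in CPM (log axis) at 24, 48 and 96 hpf in batch I17, 1 point per sample and lines joining group means, for controls, 5 mGy/h and 50 mGy/h. Exposed samples lie above controls for all 4 genes at 24 hpf, and at 48 hpf they lie above for cdx4 and vox and below for cdx1a.

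At 0.5 mGy/h at 48 hpf, edgeR and DESeq2 each called 0 of 9 members, and edgeR called 0.0505% of all genes. Under an unadjusted p of 0.05 were 3 members, beside 3981 of 19821 genes. vox was the lowest of these members in p. It was at 3.01, 3.64 and 3.32 CPM in exposed samples and at 2.85, 1.37, 1.91 and 2.45 CPM in controls, without overlap (log2 fold change 0.65 ± 0.21, edgeR adjusted p = 0.114). sall4 did not overlap either, at 43.8, 44.9 and 37.9 CPM against 35.1 to 37.2 CPM in controls (0.23 ± 0.09, adjusted p = 0.166). Neither gene was called, and the share of all genes without overlap was not counted.

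At 96 hpf, when the tail has formed, 0 members were called by edgeR or DESeq2 at any dose rate, and edgeR called 0 also with replicate 9 of 5 mGy/h left out in place of that of 50 mGy/h. The members under an unadjusted p of 0.05 were 2 of 6 tested at 0.5 mGy/h, beside 4097 of 19708 genes under that limit. They were 1 of 8 at 5 mGy/h, beside 4334 of 20378 genes, and 3 of 8 at 50 mGy/h, beside 5939 of 20378. The shares of all genes called were 0%, 0.275% and 0.162% in that order. sall4 was at 9.30, 10.2 and 9.85 CPM in the controls of batch I17, 11.05, 10.997 and 12.5 CPM at 5 mGy/h and 13.8 and 13.6 CPM at 50 mGy/h, with a log2 fold change of 0.50 ± 0.12 at 50 mGy/h (edgeR adjusted p = 0.0318). The controls of batch I10 were at 12.3, 15.2 and 16.8 CPM, so the exposed samples of batch I17 lay between the controls of both batches or within those of batch I10. cdx1a, by then at its highest level, was at 22.3, 16.95 and 17.5 CPM in controls and 9.86 and 13.3 CPM at 50 mGy/h (-0.70 ± 0.19, adjusted p = 0.0489), and the controls of batch I10 were at 9.01 to 10.5 CPM.

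Other genes of the tailbud and presomitic mesoderm were read from lists of relatives, signals and partners, chosen like the members with earlier results known. At 24 hpf in batch I17, 3 of 7 tested relatives of the members and 4 of 7 presomitic mesoderm genes rose at 5 mGy/h, and the counts were equal at 50 mGy/h. Of all genes, 6.68% and 4.17% were called higher there. Under an unadjusted p of 0.05 were 7164 of 18358 genes at 5 mGy/h and 6364 of 18358 at 50 mGy/h. The list counts under that limit given below stand beside these. Only 9 of 15 listed relatives and 8 of 10 listed presomitic genes matched a symbol. Symbols were matched first through the study's list of its significantly changed genes, so a gene could enter a list because the study had called it. These counts are therefore not independent of these data. 1 presomitic gene fell at each dose rate. Of 8 Wnt genes 2 rose at 5 mGy/h but 1 at 50 mGy/h, and 1 of 5 Bmp genes rose at each. Of 10 Fgf genes 2 rose and 1 fell at 5 mGy/h and edgeR called 0 at 50 mGy/h, with 5 under an unadjusted p of 0.05. Of 5 posterior Hox genes, which Cdx factors activate, edgeR called 0 at either dose rate, with 3 and 2 under an unadjusted p of 0.05 and list medians of 0.27 and 0.45. Of 3 genes of neuromesodermal and neural progenitors 1 fell at 5 mGy/h and edgeR called 0 at 50 mGy/h, with 1 under an unadjusted p of 0.05, and the list medians were -0.09 and -0.10. Of 2 genes of retinoic acid balance 1 rose at 5 mGy/h and edgeR called 0 at 50 mGy/h, with 2 under an unadjusted p of 0.05.

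tbx6, a T-box gene of the presomitic mesoderm, had 2.85 ± 0.78 CPM in controls, 31.8 ± 6.15 CPM at 5 mGy/h and 25.6 ± 5.69 CPM at 50 mGy/h (SD, n = 3 each). It rose by 3.496 ± 0.24 and 3.20 ± 0.24 on the log2 scale (edgeR adjusted p = 4.73e-06 and 4.89e-06). The controls of batch I32, at 9.46 to 20.7 CPM, again lay above those of batch I17. The clock repressors her1 (2.93 and 2.67) and her7 (2.82 and 2.77), the somite boundary genes mespab (3.42 and 3.16) and ripply1 (1.27 and 1.47), the Wnt target sp5l (1.46 and 1.55), the somite homeobox gene meox1 (1.44 and 1.22) and the Bmp antagonist chrd (1.33 and 1.398) also rose by these log2 fold changes at 5 and 50 mGy/h. At 0.5 mGy/h at 24 hpf edgeR called 0 of 47 list genes in either batch, with 15 in batch I32 and 8 in batch I10 under an unadjusted p of 0.05. Of all genes, 2513 of 18721 in batch I32 and 1975 of 19180 in batch I10 were under that limit.

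The Notch ligand gene dlc went against this pattern. It fell from 14.2 ± 1.34 CPM in controls to 6.12 ± 0.30 CPM at 5 mGy/h and 6.53 ± 1.32 CPM at 50 mGy/h, by 1.21 ± 0.18 and 1.102 ± 0.18 on the log2 scale (edgeR adjusted p = 7.78e-04 and 0.00129). Other controls were at 15.5 to 21.7 CPM in batch I32 and 13.9 to 15.3 CPM in batch I10, with log2 differences from the controls of batch I17 of 0.36 ± 0.11 and -0.01 ± 0.14, neither called (edgeR adjusted p = 0.0289 and 0.977). Set against the controls of those batches it was also called, at -1.39 and -1.29, as were meox1 at 0.93 and 0.71 and chrd at 0.72 and 0.79. tbx6 stood at 0.90 and 0.60 there and was called at 5 mGy/h alone (adjusted p = 0.00881 and 0.0836), and sp5l stood at 0.63 and 0.71 and was called at 50 mGy/h alone (adjusted p = 0.0104 and 0.00574). her1, her7, mespab and ripply1 were not called against those controls at either dose rate.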

How the data were processed

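Counts per gene were used as deposited. The authors aligned stranded read pairs to GRCz11 with STAR, as the submitters' processing notes name them, and deposited its counts in 3 columns, of which that of the strand holding most reads was analysed. Reads mapping to more than 1 place (14.9% to 25.5% of pairs) are not in them. Samples took their groups from the sample labels. Gene symbols came from the study's list of its significantly changed genes where it held the gene, and otherwise from a gene names table. Listed symbols without a single match were left out.

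Samples of 1 stage and batch were fitted together with edgeR 4.0.16 in R 4.3.3 (filterByExpr with a minimum count of 10, TMM, quasi-likelihood test, Benjamini-Hochberg adjustment over all genes tested). Log2 CPM used a prior count of 2. Scripts were tested on simulated data.

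The members and lists were chosen with earlier results of these data known. All 10 members are named, and list genes called at both 5 and 50 mGy/h at 24 hpf, up to 8 that rose and 4 that fell by adjusted p, and the 8 genes of most similar pattern.

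The alternatives were DESeq2 1.42.0, its size factors in edgeR, no count filter, counts without regard to strand, an adjusted p of 0.05, glmTreat, a replicate block, the removed samples included, the other replicate 9 left out at 96 hpf, batches I32 and I10 joined with a batch covariate, separate fits of 2 groups, another developmental axis, and each sample left out in turn. Library totals without TMM, the controls of other batches, leaving samples out of the position measure and the batch difference in stage change of controls were added after seeing the data. Python 3.11.15 with pandas 2.3.3 and matplotlib 3.10.9 made the tables and plots.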

Additional observations from a re-analysis of the deposited data

Results flagged for a closer look

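cdx1a in the 24 hpf controls of batch I32 held a sample that stood apart, control replicate 6 at 4.12 CPM. Of 20 groups of members' values tested for such a sample, 1 did, and chance flags about 1 in 20 groups.

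For cdx1a the exposure effect differed between stages in batch I17. From 24 to 48 hpf the difference of log2 fold changes was -4.70 at 5 mGy/h and -5.80 at 50 mGy/h, both tested as interactions in edgeR. The change of cdx1a from 24 to 48 hpf also differed between the controls of batches I17 and I10, by 4.69 on the log2 scale.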

How the results depend on the processing

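Of 73 called gene values, 1076 alternatives were computed: 966 kept call and sign, 108 lost the call with the same sign and 2 changed sign, both against the controls of batches I10 and I32. For members called at 24 hpf in batch I17 (7 at 5 mGy/h, 7 at 50 mGy/h), those controls gave 3 and 2 and glmTreat gave 4 at 5 mGy/h. Leaving out a sample gave 5 to 6 and 5 to 7. At 48 hpf and 50 mGy/h (1 called), DESeq2 gave 3, no filter 3, an adjusted p of 0.05 4, and library totals without TMM, glmTreat, the removed samples included and the 2 groups alone each 0, with 0 to 5 when a sample was left out. At 48 hpf and 5 mGy/h (0 called), DESeq2, an adjusted p of 0.05 and the 2 groups alone gave 1 each, and at 96 hpf and 50 mGy/h an adjusted p of 0.05 gave 1. At 0.5 mGy/h and 24 hpf, batch I32 gave 1 without a filter and batch I10 gave 0 to 1 when a sample was left out (1 without control replicate 3). The difference between their effects gave 2 without a filter and 0 to 2 when a sample was left out (2 without control replicate 3 of batch I10).

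For the change of effect from 24 to 48 hpf (1 called at each dose rate), DESeq2, no filter and an adjusted p of 0.05 gave 2 each at 5 mGy/h and 4, 3 and 3 at 50 mGy/h, where leaving out a sample gave 1 to 2 (2 without replicate 8 of 50 mGy/h at 48 hpf). For controls at 24 hpf, batch I10 against I17 (5 called) gave 2 to 6 when a sample was left out, and batch I32 against I17 (6 called) gave 1 without TMM, 0 with glmTreat and 2 to 7 when a sample was left out. The control stage change of batch I17 against I10 (1 called) gave 0 to 2, 2 without control replicate 3 of batch I10. The results on controls along the stages stayed within 1.5 times their counts. Counts of members under the alternatives are given without the share of all genes called in each.

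Signs turned for tbx16 (-0.064) and cdx4 (-0.082) at 0.5 mGy/h in batch I32 with batch I10 joined in 1 fit, for tbxta (-0.21 and -0.19) and sall4 (-0.29 and -0.22) at 5 and 50 mGy/h without TMM, for msgn1 (-0.45), cdx4 (-0.076) and sall4 (-0.089) at 5 mGy/h and vent (-0.68) and sall4 (-0.12) at 50 mGy/h against the controls of batches I10 and I32, and for msgn1 in 50 against 5 mGy/h (-0.028 to 1.39 when a sample was left out, -0.028 without replicate 1 of 50 mGy/h). The causes were not tested.

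The position difference at 24 hpf ranged from -18.5 to -16.5 at 5 mGy/h, -20.4 to -15.8 at 50 mGy/h and -2.87 to -1.92 at 0.5 mGy/h when a sample was left out. With the 48 hpf controls of batch I17 as the later end it was -4.02, -8.41 and 0.954.

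Replicate numbers are shared between groups, but the correlation of same-numbered samples' deviations from their group means lay between -0.383 and 0.281, so the numbers were not taken to pair samples. With a replicate block, 5 members were called at 5 mGy/h at 24 hpf, since msgn1 (adjusted p = 0.011) and eve1 (0.0295) lost their calls, and 0 at 48 hpf and 50 mGy/h, since vox (0.0798) did. The block changed no other member call. No paired analysis was possible for batch I10 at 24 hpf because its groups shared 1 number.

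Depth limits the members at 48 and 96 hpf most: msgn1 had at most 9 counts there and vent at most 17, and a sample left out of a group of 2 left 1 sample, assumed to vary like the other groups.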

Other observations

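The members varied together across the 22 samples at 24 hpf. With each value taken as log2 CPM less the mean of the controls of its batch, Pearson's r with the mean of the other members was 0.98 for cdx4 and cdx1a, 0.97 for tbx16 and 0.96 for msgn1, and it was lowest for vent at 0.45. Without batch I17, over 13 samples, r was 0.96 for cdx4 and tbx16, 0.95 for cdx1a and 0.93 for msgn1, and it was 0.49 for vox and 0.59 for eve1, while vent rose to 0.86. These are descriptions, since the samples share controls, scaling and batch.

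Outside the lists, the genes whose pattern over the 22 samples was most like the members' mean, among 15200 with a mean of at least 1 CPM, were efemp2, mogat2, krt99, fn1b, uox, slc13a4, ctsc and scarb1. Their r ranged from 0.97 for scarb1 to 0.98 for efemp2, and from 0.90 for slc13a4 to 0.98 for fn1b over the 13 samples without batch I17. fn1b encodes a fibronectin of the extracellular matrix, and scarb1 a lipoprotein receptor.

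The germ cell list, 5 genes read as another cell population of the early embryo, was at 6.39 to 7.96 CPM in sum in the 24 hpf controls of batch I17, 12.8 to 14.9 CPM at 5 mGy/h and 11.9 to 13.9 CPM at 50 mGy/h. In the controls of the other batches it was at 5.30 to 7.28 CPM (I32) and 10.9 to 13.1 CPM (I10).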
